A study of Homo sapiens with 6 samples.

Results

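The 8 genes described here are GATA6, HNF4A, FOXA1, FOXA2, SOX9, PDX1, KLF5 and ELF3, transcription factors that lay down the pancreatic lineage or mark the classical subtype of pancreatic cancer. They were taken by symbol from a table of 20036 genes, and all 8 were found. The RNA came from PANC-1, an established cell line grown from a human pancreatic carcinoma, in 3 libraries that received a null virus (control) and 3 that received a lentivirus against SHMT2, the mitochondrial serine hydroxymethyltransferase. The labels give neither the short hairpin, the time after infection nor any selection, and name no separate cultures, so the p-values rest on the spread among these 6 libraries, which may be technical. ELF3 and GATA6 rose from a few counts per control library, SOX9, the most abundant of the 8 per unit of length, was modestly lower, and the other 5 gave no call.

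Pancreatic progenitors depend on PDX1, SOX9, GATA6, HNF4A and the FOXA pair, and the mature duct keeps SOX9. FOXA1 and FOXA2 are pioneer factors, able to bind their sites in closed chromatin, while HNF4A is a nuclear receptor that drives hepatic, intestinal and pancreatic epithelial genes. In pancreatic tumours, GATA6 and HNF4A are known for the classical, gland-forming state, KLF5 and ELF3 for epithelial gene expression, and loss of GATA6 and HNF4A for the basal-like state.

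The libraries held from 15405884 to 19075734 counts. SHMT2 itself stood at 133, 153 and 153 CPM in control replicates 1, 2 and 3 and at 6.91, 3.42 and 5.23 CPM in knockdown replicates 1, 2 and 3, where CPM is the count scaled to a common library size after TMM adjustment. Control replicate 1 and knockdown replicate 2 stood apart within their groups. The chi-square of counts per gene was 25.69 and 30.69 between control replicate 1 and the other controls against 2.07 between those, and 75.21 and 76.78 between knockdown replicate 2 and the other knockdown libraries against 2.47 between those. The 13 genes of the mitochondrial genome took 10.4% of counts in knockdown replicate 2, where the other libraries ranged from 4.72% to 6.86%. Of 12292 genes tested by edgeR's quasi-likelihood test, 51.8% passed a Benjamini-Hochberg adjusted p of 0.05, which is what "called" means below, 26.7% as higher and 25.1% as lower in the knockdown libraries. The groups did not overlap in 31.3% of tested genes as higher and in 30.2% as lower.

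ELF3 and GATA6 are the members that rose, so the 250 bases before their annotated starts are shown first, from RefSeq on GRCh38.p14, which held windows for 5 of the 8 genes. The GATA6 window is chr18:22169339-22169588 and the ELF3 window is chr1:202010337-202010586, both on the plus strand. Capitals mark matches, on either strand, to any of 8 short motifs. The motifs were AGATAA for GATA factors, CCGGAAG for ETS factors, CCACCC for KLF factors, TGTTTAC for forkhead factors and AACAAAG for SOX factors. The remaining motifs were TATAAA (the TATA box), the interferon-stimulated response element and the NF-kB site.
GATA6: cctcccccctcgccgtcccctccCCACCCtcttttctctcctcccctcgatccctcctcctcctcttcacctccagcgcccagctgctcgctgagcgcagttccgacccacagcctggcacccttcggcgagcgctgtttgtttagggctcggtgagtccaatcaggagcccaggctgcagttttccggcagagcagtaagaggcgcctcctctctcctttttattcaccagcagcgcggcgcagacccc
ELF3: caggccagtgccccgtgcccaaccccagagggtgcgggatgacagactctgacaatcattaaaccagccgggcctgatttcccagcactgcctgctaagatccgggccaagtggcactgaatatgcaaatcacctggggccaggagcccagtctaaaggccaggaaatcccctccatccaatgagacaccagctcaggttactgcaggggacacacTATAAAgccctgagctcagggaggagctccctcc
The GATA6 window held 1 KLF motif, 227 bases before the start, a motif found in 31.3% of all 34943 such windows. The ELF3 window held 1 TATA box motif, 34 bases before the start, found in 10.8% of windows. No position matched more than 1 motif in either window, and the other 6 motifs had no match in either. GC content was 64.4% before GATA6 and 58.4% before ELF3, against a median of 58.0% over all windows. The ELF3 start in RefSeq, at 202010587, lies inside the gene as the deposited table draws it, from 202007945 to 202017183, so this window is not upstream of every ELF3 transcript.

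ELF3 (ENSG00000163435, chromosome 1, 202007945 to 202017183, plus strand), an epithelium-specific ETS factor, showed the widest change of the 8. Control replicates 1, 2 and 3 held 9, 3 and 5 ELF3 counts, and knockdown replicates 1, 2 and 3 held 273, 180 and 287. These were 0.567, 0.2 and 0.316 CPM against 13.6, 11 and 14.9 CPM. Every knockdown library was above every control library, and knockdown replicate 2 was the lowest of its group. The mean rose from 0.361 ± 0.187 to 13.1 ± 1.97 CPM (SD, n = 3 per group), with a log2 fold change of 5.15 (SE 0.29, 95% interval 4.48 to 5.82, adjusted p = 1.82e-05). By summed counts per scaled library total, the ratio was 36.4, with an exact binomial interval of 22.6 to 62.8 that covers counting error only. Ranked by rise, ELF3 was gene 39 of 12292.

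GATA6 (ENSG00000141448, chromosome 18, 22169589 to 22202528, plus strand), a zinc finger factor of endoderm and of the classical tumour state, rose as well, from a like control level (17 summed counts for each gene) to a lower knockdown level. Its counts were 8, 7 and 2 in control replicates 1, 2 and 3 and 39, 82 and 61 in knockdown replicates 1, 2 and 3, or 0.504, 0.468 and 0.127 CPM against 1.94, 5.01 and 3.16 CPM. The groups did not overlap, but the knockdown libraries were spread widely, with replicate 2 the highest and replicate 1 the lowest. The mean rose from 0.366 ± 0.208 to 3.37 ± 1.55 CPM (SD, n = 3), for which edgeR gave a log2 fold change of 3.17 (SE 0.52, 95% interval 1.95 to 4.38, adjusted p = 0.00195). The ratio of summed counts was 8.95 (counting interval 5.44 to 15.7), and GATA6 was gene 149 of 12292 by rise. Knockdown replicate 2, which stood apart, was therefore the lowest knockdown library for ELF3 and the highest for GATA6. Without it the log2 fold change was 5.25 for ELF3 and 2.77 for GATA6, and both remained called.

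The controls of both genes lay below the filter on low counts (0.604 CPM before scaling, in at least 3 libraries). Each entered the test through its knockdown libraries, and such a gene had to differ to be tested at all, so these 2 calls are values and not a count in support of a pattern. In bulk RNA, more cells that express these genes and more RNA per expressing cell cannot be told apart. In the GENCODE 29 annotation, antisense transcripts cover 6.08% (GATA6-AS1) and 8.14% (AC091588.3) of GATA6 exon bases. ELF3-AS1 covers 9.23% of ELF3 exon bases, and the same-strand transcript AL691482.3 covers 9.23%. The strand setting of the counts is not given in the sources used here, and the part of these transcripts in the counts was not tested.

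**Figure D1:**
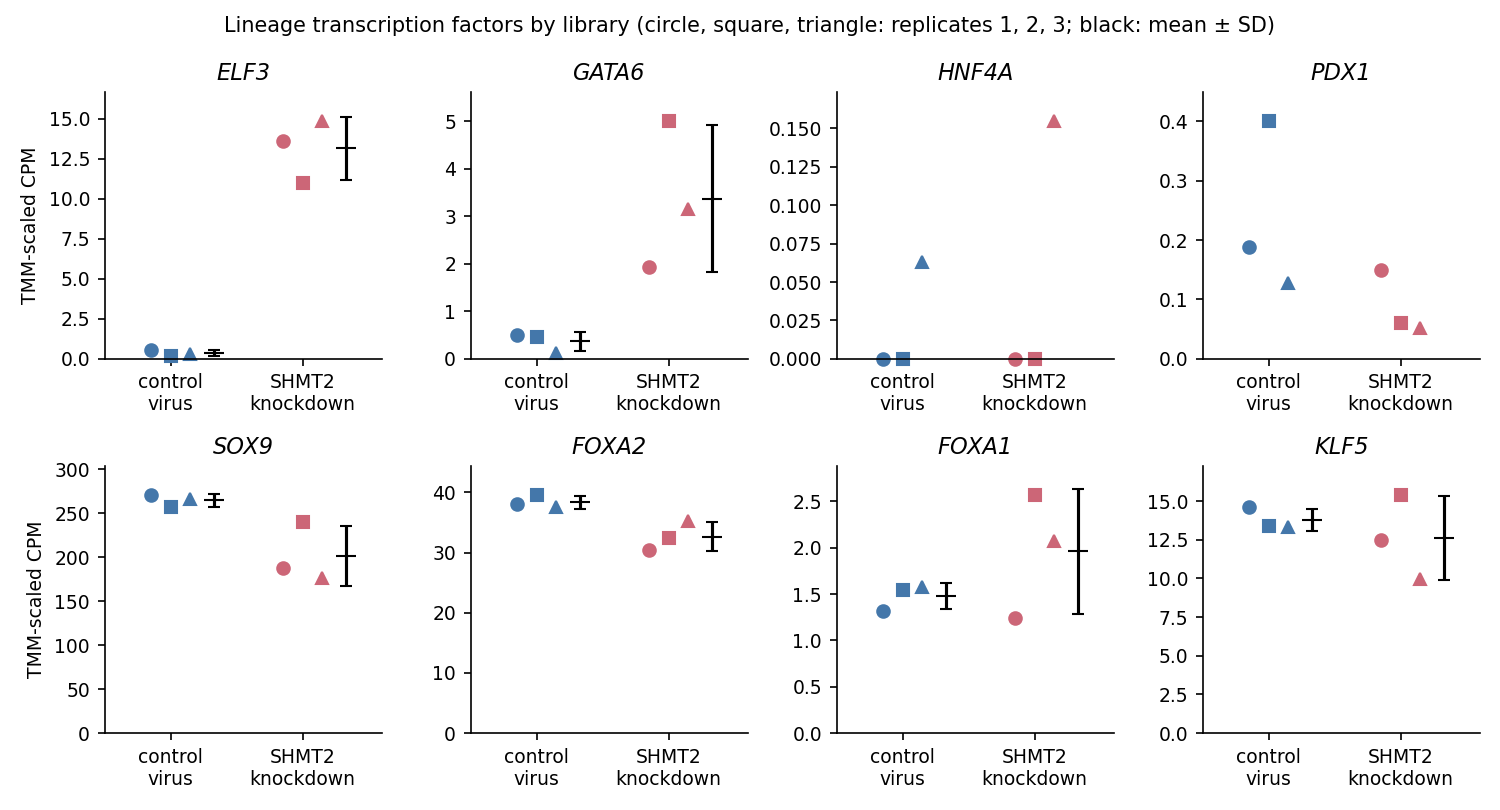
Each panel plots 1 factor's TMM-scaled CPM (linear vertical axis from 0) in the 3 control and 3 knockdown libraries, with symbols for replicates 1, 2 and 3 and the mean ± SD in black (not drawn for HNF4A and PDX1, which had few counts). ELF3 and GATA6 are near 0 in all controls and higher in every knockdown library, SOX9 and FOXA2 are lower in every knockdown library, and the groups overlap for HNF4A, PDX1, FOXA1 and KLF5.

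HNF4A (ENSG00000101076, chromosome 20, 44355699 to 44432845, plus strand) and PDX1 (ENSG00000139515, chromosome 13, 27920000 to 27926313, plus strand) were close to undetected in both groups. For HNF4A, control replicates 1, 2 and 3 held 0, 0 and 1 counts and knockdown replicates 1, 2 and 3 held 0, 0 and 3, which is at or under a floor of 3 counts per group, so no fold is given. PDX1, which specifies the pancreatic bud and later supports insulin transcription, had 3, 6 and 2 control counts and 3, 1 and 1 knockdown counts. Its groups overlapped, and the ratio of summed counts was 0.38, with a counting interval of 0.104 to 1.19. Both fell below the filter and were not tested. With no filter, over 16463 genes, neither was called (adjusted p = 0.645 for HNF4A and 0.228 for PDX1), so a change was not detectable at this depth.

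SOX9 (ENSG00000125398, chromosome 17, 72121020 to 72126416, plus strand), the SRY-box factor of ducts and pancreatic progenitors, was read at 271, 257 and 266 CPM in control replicates 1, 2 and 3 and at 188, 240 and 176 CPM in knockdown replicates 1, 2 and 3. All knockdown libraries were below all controls, and replicate 2, the knockdown library that stood apart, was the nearest to them. The mean fell from 265 ± 7.23 to 201 ± 34.0 CPM (SD, n = 3), for which edgeR gave a log2 fold change of -0.39 (SE 0.12, 95% interval -0.68 to -0.11, adjusted p = 0.03). Of the tested genes, 45.1% changed by less than SOX9 in either direction. The call was lost without any of the 3 controls (adjusted p = 0.0568, 0.0698 and 0.0807 without replicates 1, 2 and 3) and without knockdown replicate 1 (0.114) or 3 (0.11). Without knockdown replicate 2 it was kept, at -0.55 (adjusted p = 0.00111), and without both libraries that stood apart the log2 fold change was -0.52.

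Neither FOXA2 (ENSG00000125798, chromosome 20, 22580998 to 22585455, minus strand) nor FOXA1 (ENSG00000129514, chromosome 14, 37589552 to 37596059, minus strand) passed the test. FOXA2 was read at 38.1, 39.6 and 37.5 CPM in control replicates 1, 2 and 3 and at 30.4, 32.4 and 35.2 CPM in knockdown replicates 1, 2 and 3. The groups did not overlap, yet the log2 fold change of -0.23 (SE 0.09, 95% interval -0.45 to -0.01) had an adjusted p of 0.0718 in edgeR and was not called. Without both libraries that stood apart it was called at -0.23 (adjusted p = 0.00515), in a fit whose remaining pairs had the smallest spread within each group. FOXA1 lay at 1.32, 1.54 and 1.58 CPM in the controls and at 1.24, 2.57 and 2.07 CPM in the knockdown libraries, replicates 1 to 3 in each case. Those groups overlapped, with knockdown replicate 1 below every control, and the log2 fold change was 0.39 (95% interval -0.31 to 1.09, adjusted p = 0.31). That interval reaches past a 2-fold rise, which the counts, 69 in the controls together and 107 in the knockdown libraries, do not separate from no change.

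KLF5 (ENSG00000102554, chromosome 13, 73054976 to 73077541, plus strand), a zinc finger factor of proliferating epithelium, was read at 14.6, 13.4 and 13.3 CPM in control replicates 1, 2 and 3. In knockdown replicates 1, 2 and 3 it stood at 12.5, 15.4 and 9.94 CPM, on both sides of the controls. The log2 fold change was -0.13 (SE 0.17, 95% interval -0.52 to 0.26, adjusted p = 0.554), and it was 0.02 without knockdown replicate 3. So of the 8 genes, 2 were called higher, 1 was called lower, 3 were tested without a call and 2 were not tested, beside 26.7% called higher and 25.1% called lower among all tested genes. The 2 called higher, ELF3 and GATA6, were tested only because of their knockdown libraries. Of the other 4 tested, 0 were higher and 1 lower (median log2 fold change -0.18).

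**Figure D2:**
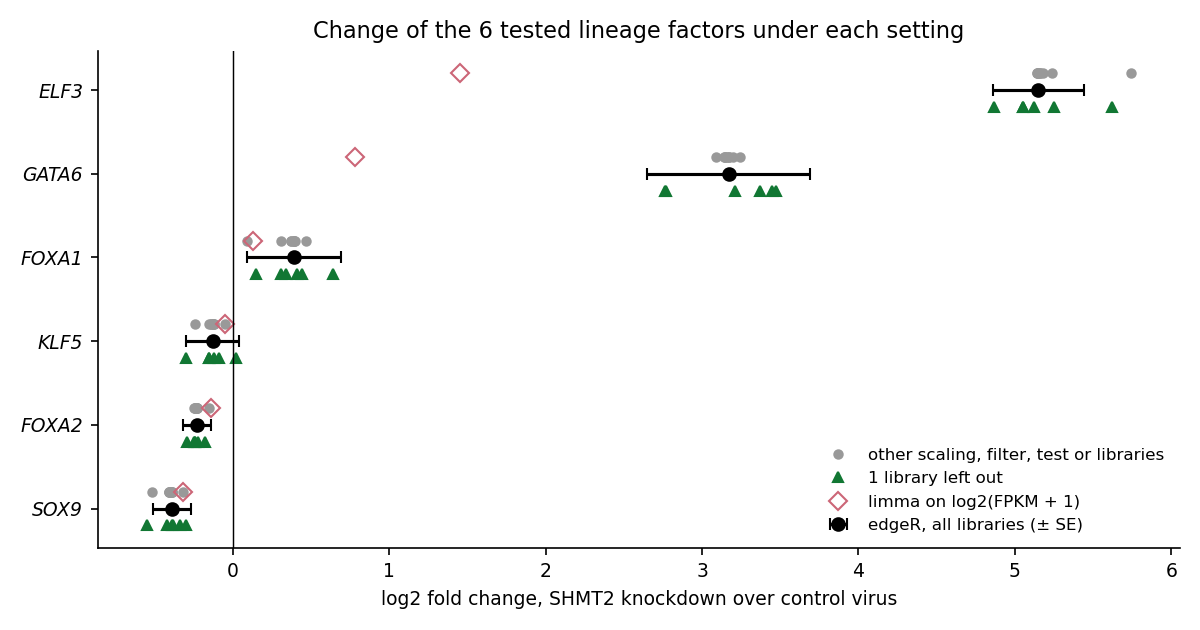
The horizontal axis is the log2 fold change of knockdown over control for the 6 tested factors, with the edgeR estimate and its SE in black, fits that leave out 1 library as triangles, and other settings as grey points. ELF3 stays between 4.87 and 5.74 and GATA6 between 2.76 and 3.47 except on the log2(FPKM + 1) scale (open diamonds, 1.45 and 0.78), which compresses low levels, and the other 4 lie between -0.55 and 0.64.

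Levels were compared between genes only per length, as the deposited FPKM (the count divided by the listed gene length and by the library total). In the controls the order was SOX9 (65.4 ± 1.97 FPKM), FOXA2 (13.7 ± 0.427), KLF5 (3.63 ± 0.215) and FOXA1 (0.326 ± 0.0288, SD, n = 3 for each), and the ranges of these neighbours did not overlap. GATA6 (0.0938 ± 0.0536), PDX1 (0.0892 ± 0.0537) and ELF3 (0.0489 ± 0.0256) followed with overlapping ranges, and HNF4A was last at 0.002. SOX9 made up 78.5% of the summed FPKM of the 8 genes in the controls and 73.1% in the knockdown libraries.

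In the knockdown libraries SOX9 (52.5 ± 6.46 FPKM), FOXA2 (12.4 ± 1.11) and KLF5 (3.51 ± 0.624) held the same 3 places. ELF3 came next at 1.89 ± 0.354 FPKM, clear of GATA6 at 0.901 ± 0.376, whose range overlapped that of FOXA1 (0.453 ± 0.14, SD, n = 3). The share of ELF3 in the summed FPKM went from 0.0582% to 2.68% and that of GATA6 from 0.112% to 1.24%. The mean of ELF3 stayed below that of KLF5 in the knockdown libraries, and GATA6, level with ELF3 within the spread of the controls, lay below it there.

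Over the 6 libraries, the genes most like SOX9 in log2 CPM, among 10019 genes averaging at least 5 CPM, were CASC3 and TBC1D1 (Pearson r of 0.996 for each). FBXL12 (r = 0.996) and AKAP8 (r = 0.989) were most like FOXA2, and NSMAF (r = 0.979) and MICAL2 (r = 0.97) most like KLF5. These are descriptions over 6 points that share 2 groups and the same library depths.

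The 10 tested genes on either side of each factor show what its surroundings did. Around ELF3 on chromosome 1, 9 of 20 neighbours were called higher and 1 lower, with a median log2 fold change of 0.48, beside 26.7% and 25.1% of all tested genes called higher and lower. Around GATA6 on chromosome 18, 11 were higher and 1 lower, with a median of 0.42 and a highest value of 3.91, for the laminin chain gene LAMA3, named after its value was seen. Around HNF4A on chromosome 20, 11 were higher and 0 lower in edgeR (median 0.37). The medians were 0.37 around KLF5, 0.23 around FOXA1, 0.05 around PDX1, 0.03 around FOXA2 and -0.17 around SOX9, against 0.0 over all tested genes. ELF3 lay above all of its neighbours, whose values ran from -0.67 to 2.46, and GATA6 above all but LAMA3. Whether shared position has a part in these changes was not tested.

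**Figure D3:**
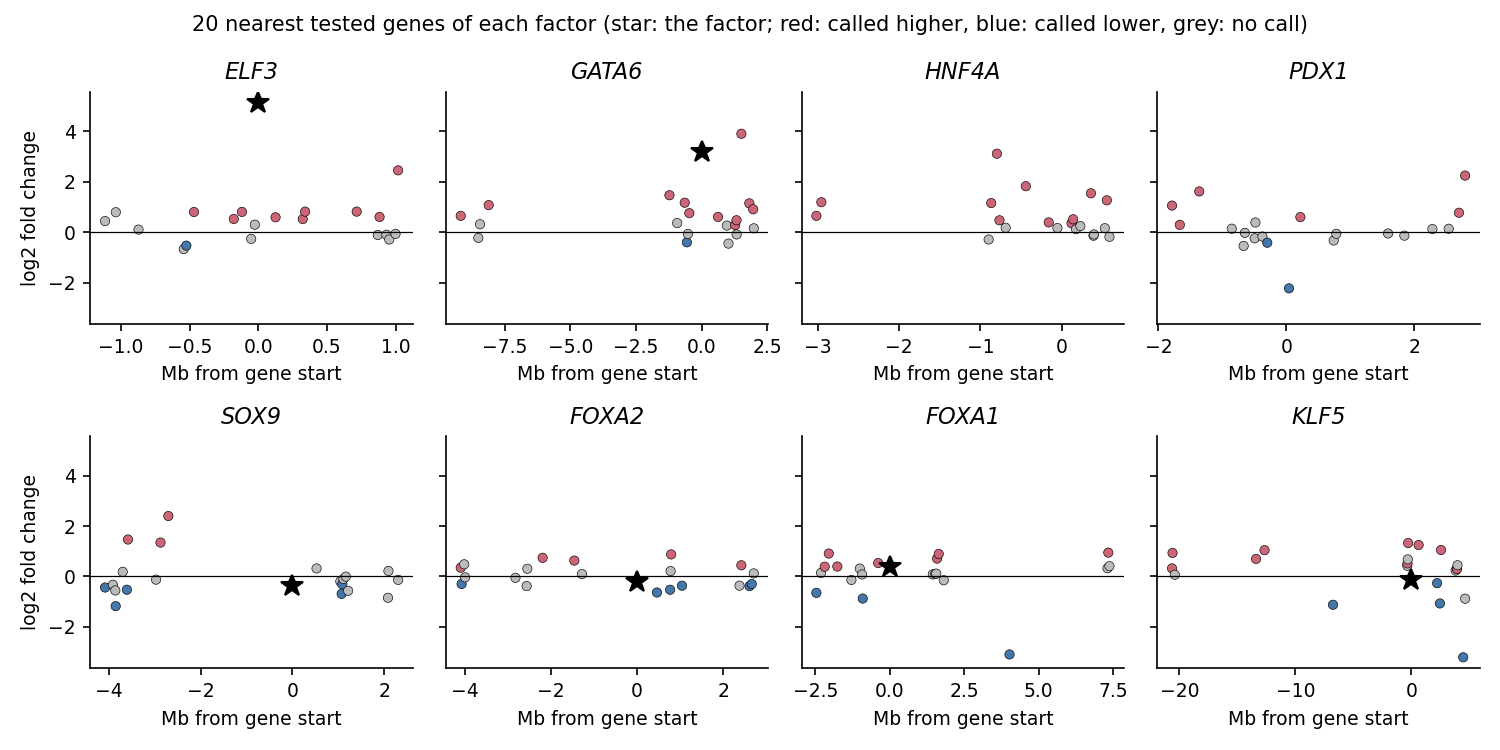
Each panel plots the log2 fold change of the 10 tested genes on either side of 1 factor against their distance from its start in megabases, coloured by call, with the factor itself as a star where it was tested. ELF3 stands at 5.15 over neighbours of up to 2.46, GATA6 at 3.17 has LAMA3 at 3.91 in its surroundings, and SOX9, FOXA2, FOXA1 and KLF5 lie among theirs.

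Most partners of the 8 factors in pancreatic and gut epithelium were too low to test. Of 28 such factors, 11 could be tested, 6 were called higher and 2 lower, beside 26.7% and 25.1% of all tested genes, with a median log2 fold change of 0.82, and 5 had no count in any library. CDX2 was tested only because of its control libraries, and of the other 10 tested 6 were higher and 1 lower (median 0.87). Those 10 still include CREB3L1. CREB3L1 is a membrane-bound leucine zipper factor of secretory cells. It rose from 0.755, 0.468 and 0.316 CPM in control replicates 1 to 3 to 4.87, 8.19 and 4.61 CPM. Its log2 fold change was 3.49 (SE 0.38). Among its controls only replicate 1 reached the filter on low counts, so it was tested because of its knockdown libraries. ONECUT3, a relative of the hepatocyte nuclear factor 6 gene, rose from 16.2 ± 1.33 to 52.5 ± 12.8 CPM, TEAD1, a DNA-binding partner of YAP, from 163 ± 29 to 409 ± 25.9 CPM, and RBPJ, the nuclear effector of Notch, from 52.5 ± 9.21 to 92.6 ± 3.26 CPM (SD, n = 3).

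Other partners were chosen for mention after their values were seen. The intestinal factor CDX2 fell from 1.54 ± 0.176 to 0.323 ± 0.151 CPM (log2 fold change -2.23, tested only because of its control libraries), and the Notch target HES1 from 26.3 ± 2.30 to 16.3 ± 1.43 CPM (log2 fold change -0.69). NR5A2, an orphan nuclear receptor of acinar cells, rose from 0.924 ± 0.2 to 2.19 ± 0.329 CPM (SD, n = 3). EHF, another epithelial ETS factor, had 0 counts in every control and 3, 1 and 7 in knockdown replicates 1, 2 and 3. Scaled for library size, that is 3.07-fold over a floor of 3 counts for the controls together. Counting error in the knockdown libraries is left out of that figure. GRHL2, an epithelial factor, had 0 counts in the controls and 2 in the knockdown libraries.

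Genes that mark the classical subtype did not appear as a block. Of 33 on the list, 7 could be tested, of which 3 were called higher and 0 lower in edgeR (median 1.04), beside 26.7% and 25.1% of all tested genes, while 6 had no count in any library and 20 lay below the filter. CEACAM6 and LGALS4 were tested only because of their knockdown libraries, so they had to be higher, and of the other 5 tested 1 was higher and 0 lower (median 0.29). CEACAM6 encodes a cell surface adhesion molecule, and its counts were 0, 0 and 1 in control replicates 1 to 3 and 126, 114 and 83 in knockdown replicates 1 to 3, a ratio of 270 with a counting interval of 48.1 to 10700. The 1 control count decides that size, as the fitted log2 fold change was 7.66 with all libraries and 9.66 without control replicate 3. The membrane mucin MUC1 rose from 5.67, 4.48 and 4.43 CPM to 8.55, 22.7 and 11.4 CPM, with a log2 fold change of 1.54 (SE 0.36, adjusted p = 0.00919). LGALS4, an intestinal galectin, was called at 1.04 (adjusted p = 0.0389), and its call was lost in 10 of 15 alternatives, among them those without any single control or without knockdown replicate 1 or 2 (adjusted p from 0.0822 to 0.136).

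AGR2, a disulphide isomerase of mucin-secreting cells and the most abundant classical gene here, lay at 262 ± 18.6 and 262 ± 21.5 CPM (SD, n = 3, adjusted p = 0.999). TSPAN8, a tetraspanin below the filter, had 0 counts in every control and 22, 6 and 31 in knockdown replicates 1, 2 and 3. Scaled for library size, that is 16.4-fold over a floor of 3 counts for the controls together. Counting error in the knockdown libraries is left out of that figure. TFF1, TFF2 and TFF3, trefoil peptides of the gut mucosa, had 9, 0 and 14 counts in the controls together and 4, 1 and 11 in the knockdown libraries. Other classical genes below the filter went both ways. In CPM, PRR15L, VSIG2 and TFF3 were lower in every knockdown library than in any control. PRR15L and VSIG2 had 22 and 30 control counts and 2 and 12 knockdown counts. TOX3 and SDR16C5 were higher in every knockdown library, with 1 and 0 control counts and 24 and 9 knockdown counts. S100P had 2, 2 and 1 counts in control replicates 1 to 3 and 12, 0 and 23 in knockdown replicates 1 to 3. The choice of AGR2 and of these genes below the filter was made with their values in view. The count of classical genes called lower was 1 without control replicate 1, 2 with no filter on low counts and 3 without both libraries that stood apart.

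Duct markers were split. Of 14 genes, 9 were tested, with 5 called higher and 2 lower (median 0.58), beside 26.7% and 25.1% of all tested genes. KRT19 was tested only because of its knockdown libraries, and of the other 8 tested 4 were higher and 2 lower (median 0.52). Counts of the ductal keratin KRT19 were 3, 4 and 0 in control replicates 1 to 3 and 1523, 900 and 1518 in knockdown replicates 1 to 3, a ratio of 471 (counting interval 228 to 1170). Its fitted log2 fold change was 8.79 with all libraries and 9.42 without control replicate 2. CDH1, the epithelial cadherin, rose from 0.937 ± 0.455 to 3.97 ± 1.06 CPM and KRT8, a simple epithelial keratin, from 947 ± 101 to 1410 ± 90.8 CPM. The adhesion molecule EPCAM fell from 18.1 ± 0.527 to 6.95 ± 0.863 CPM (SD, n = 3). CFTR, the duct chloride channel, had no count in any library, while KRT18, the partner of KRT8, lay at 421 ± 99.8 and 538 ± 163 CPM (SD, n = 3, adjusted p = 0.285).

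Of 26 basal-like genes with a row in the table, 9 were tested, 1 was called higher and 4 lower (median -0.34), beside 26.7% and 25.1% of all tested genes, and 7 had no count in any library. SCEL encodes sciellin of the cornified envelope. It fell from 8.12, 4.54 and 4.87 CPM in control replicates 1 to 3 to 0.795, 0.489 and 0.57 CPM. Its log2 fold change was -3.21 (SE 0.33). Among its knockdown libraries only replicate 1 reached the filter on low counts, so it was tested because of its control libraries. The glucose transporter SLC2A1 fell from 96.8 ± 6.23 to 70.3 ± 6.50 CPM and the retinol dehydrogenase DHRS9 from 15 ± 0.443 to 8.96 ± 1.87 CPM, whereas the EGF receptor ligand AREG rose from 20.8 ± 0.608 to 29.7 ± 3.12 CPM (SD, n = 3). The listed keratins KRT5, KRT14 and KRT6A had 3, 2 and 6 counts in the controls together and 1, 0 and 0 in the knockdown libraries. KRT6C and KRT17 had 1 and 2 control counts and 2 and 4 knockdown counts. KRT15 lay at 1.99 ± 0.147 and 2.82 ± 0.527 CPM, higher in every knockdown library but not called (edgeR adjusted p = 0.0789). KRT7 lay at 1.09 ± 0.195 and 1.48 ± 0.576 CPM (SD, n = 3, edgeR adjusted p = 0.299). These keratins were named after their values were seen.

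Transcription factors linked to the basal-like or mesenchymal state were called at shares near those of all tested genes. Of 20 genes, 15 were tested, with 4 called higher and 4 lower (median -0.14), beside 26.7% and 25.1% of all tested genes. The chromatin architectural protein HMGA2 fell from 901, 803 and 832 CPM in control replicates 1 to 3 to 258, 332 and 248 CPM, a log2 fold change of -1.60 (SE 0.13). MYC fell from 126 ± 7.19 to 68.6 ± 6.02 CPM and TEAD4, a DNA-binding partner of YAP like TEAD1, from 31.7 ± 2.36 to 16.2 ± 3.12 CPM. SIX4, a homeodomain factor, rose from 15.9 ± 1.08 to 25.3 ± 1.35 CPM (SD, n = 3). The repressors of CDH1, ZEB1 and ZEB2, were named after their values were seen. ZEB1 rose from 36.9 ± 15.5 to 72.0 ± 15.6 CPM (SD, n = 3, edgeR adjusted p = 0.0226). ZEB2 rose from 1.51 ± 0.757 to 3.61 ± 1.17 CPM (SD, n = 3, edgeR adjusted p = 0.0329). The count of higher genes was 1 without control replicate 2 or 3 and 2 without knockdown replicate 1 or 2. SIX4 was called under all 16 alternatives, so ZEB1 and ZEB2 both lost their calls without control replicate 2 or 3. Without both libraries that stood apart, 6 were higher and 7 lower.

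**Figure D4:**
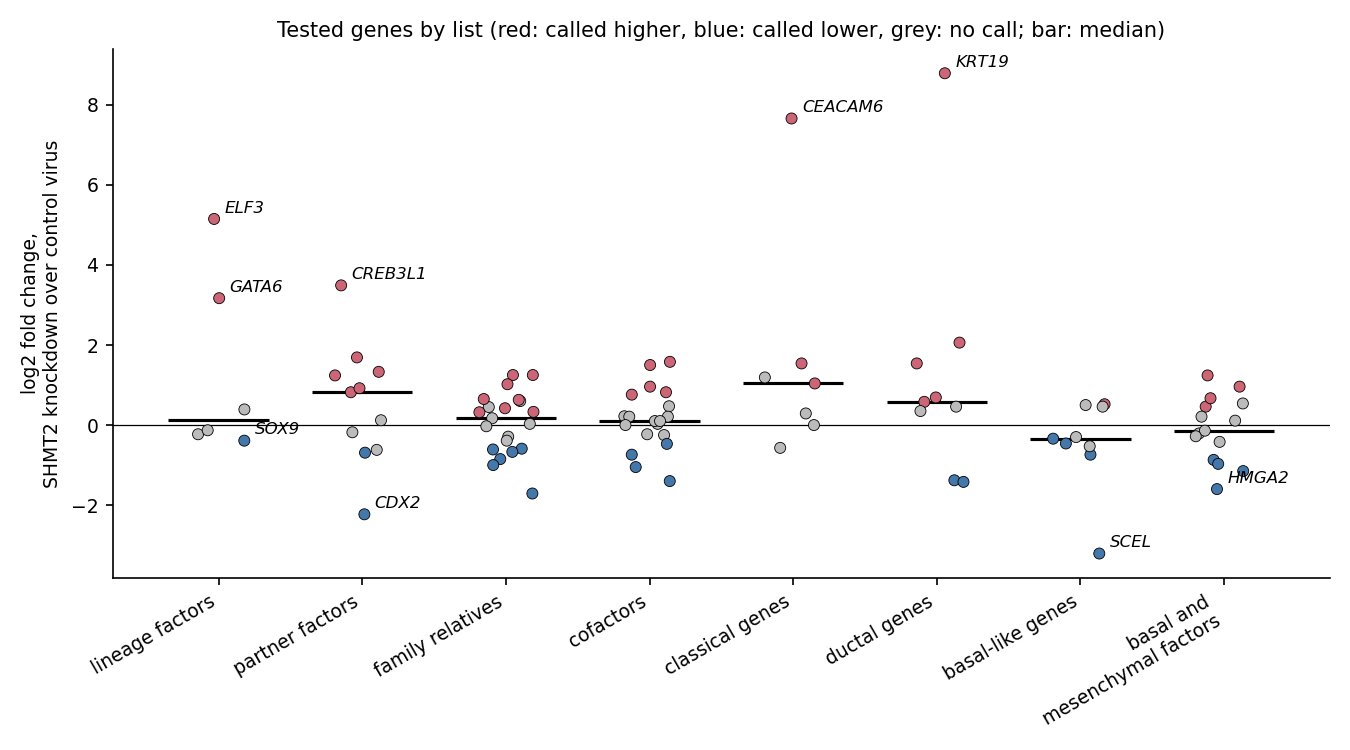
Each point is 1 tested gene, placed by its list and by its log2 fold change of knockdown over control, coloured by call, with a bar at the list median. ELF3 at 5.15 and GATA6 at 3.17 lie above the other lineage factors, KRT19 at 8.79 and CEACAM6 at 7.66 above the rest of the duct and classical genes, and SCEL at -3.21 below the other basal-like genes.

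Markers of other cell types ranged from near 0 (acinar) to COL1A1 of the fibroblast list. Per length, COL1A1 averaged 9.04 FPKM in the controls and 5.05 in the knockdown libraries, below FOXA2 and above KLF5 in both groups. Acinar markers summed to 0.127 to 0.468 CPM in the controls and 0.183 to 0.944 CPM in the knockdown libraries, with 7 of 11 at 0 in every library and the most abundant, CEL and CTRB1, at 11 and 0 control and 21 and 6 knockdown counts. Immune markers summed to 0.802 to 1.9 and 2.43 to 3.21 CPM, with 3 of 9 at 0. The immune total was mostly CD14 (1.19 ± 0.425 and 2.37 ± 0.673 CPM), followed among those named by NKG7 with 4 and 6 counts. Endothelial markers summed to 0.441 to 0.668 and 5.86 to 7.25 CPM, of which KDR, a receptor for vascular endothelial growth factor, made up 0.257 ± 0.00855 and 6.20 ± 0.591 CPM (tested only because of its knockdown libraries) and VWF had 7 and 6 counts. Fibroblast markers summed to 83.3 to 97.5 and 48.9 to 53.1 CPM, with 3 of 9, among them DCN, at 0. In that list COL1A1 fell from 83.8 ± 7.17 to 44.3 ± 2.77 CPM, COL3A1 rose from 2.39 ± 0.393 to 5.10 ± 1.19 CPM and THY1 fell from 2.49 ± 0.33 to 1.38 ± 0.454 CPM (SD, n = 3). The count of fibroblast genes called lower went from 2 to 1 when control replicate 2, control replicate 3, knockdown replicate 1 or knockdown replicate 3 was left out, and CD14, the 1 immune gene called, lost its call when control replicate 1, control replicate 2, knockdown replicate 1 or knockdown replicate 3 was left out. The part of any other cell type in the lineage factors' changes was not tested. Endocrine markers summed to 9.82 to 9.94 and 15.3 to 17.2 CPM, almost all from CHGB (4.97 ± 0.41 and 4.97 ± 1.62 CPM) and SCG2 (4.62 ± 0.456 and 10.8 ± 0.561 CPM), with INS at 0 in every library.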

How the data were processed

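The 6 libraries of PANC-1 RNA were compared as 3 per group, by their titles. Per the labels' protocols, TRIzol was used to extract the RNA and NEBNext Ultra II to build the libraries. The authors deposited raw read counts per gene and FPKM values, per the file headers. Not given in the sources used here are the aligner, counter, build and strand setting. Coordinates are the table's, and 6 of 8 genes share a start or end with GENCODE 29 (GRCh38).

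The test was edgeR 4.0.16 under R 4.3.3 (filterByExpr, TMM, quasi-likelihood fit without covariates, Benjamini-Hochberg over 12292 genes, common biological coefficient of variation 14.2%). The fit was tested on simulated data. Each SE was derived from the F statistic and the fitted log2 fold change. Alternatives used other scaling, filters, DESeq2 1.42.0, limma 3.58.1 (voom, and log2(FPKM + 1)), a replicate block and fewer libraries.

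Members and lists were chosen with earlier results of these data known. Named were the 8 genes, SHMT2, up to 4 called genes per list by smallest p (below 2 called, the 2 of highest mean), and for the 3 members of highest FPKM the 2 genes of highest r with log2(CPM + 0.5). A list of 7 transcripts next to the members was not analysed here.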

Additional observations from a re-analysis of the deposited data

How the results depend on the processing

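ELF3 and GATA6 were called higher under all 16 alternatives, from 1.45 to 5.74 and from 0.78 to 3.47, the lowest values coming from limma on log2(FPKM + 1). Over all genes, calls ranged from 4748 to 9135 against 6372, and on the other lists together from 51 to 78, all within 1.5 times. Deviations from the group means showed no steady pairing by replicate number (same-numbered correlations of -0.305, -0.282 and 0.303). Control replicate 1 correlated best with knockdown replicate 2 (0.446), and control replicates 2 and 3 with knockdown replicate 3 (0.246 and 0.303). The libraries that stood apart weigh on all these deviations, so the correlations cannot settle whether the libraries were paired. With the replicate block there were 5444 calls, SOX9 was -0.41 (adjusted p = 0.0524), FOXA2 -0.24 (0.153) and 0 members were called lower by edgeR. Leaving out 1 library moved SOX9 from -0.55 to -0.30 and KLF5 from -0.30 to 0.02, with 0 to 1 members called lower. Without both libraries that stood apart, FOXA2 was called at -0.23 and 2 members were lower. Among genes without a call, CHGB changed sign with library size alone (0.06), on log2(FPKM + 1) (0.03) and when 1 library was left out (-0.31 to 0.13). NSMAF was 0.0 under both of the former, and MICAL2 was 0.04 and 0.03, with -0.14 to 0.05 when 1 library was left out. The cause of these changes was not tested. At this depth HNF4A and PDX1 lay below the filter, and neither was called without it.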

Other observations

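Relatives of the lineage factors within their families moved in both directions. Of 29 genes, 21 were tested, with 8 called higher and 6 lower (median log2 fold change 0.17, against 26.7% and 25.1% of all tested genes). Among GATA factors, GATA2, of blood and endothelium, fell from 22.5 ± 0.905 to 12.5 ± 1.32 CPM, while GATA3 (9.13 ± 1.34 and 12.5 ± 5.09 CPM) and GATA4 (16.9 ± 1.74 and 19.1 ± 3.49 CPM) gave no call (adjusted p = 0.207 and 0.387). In the KLF family, KLF6 fell from 287 ± 3.01 to 188 ± 6.31 CPM and KLF9 rose from 6.04 ± 0.602 to 14.4 ± 1.24 CPM. The ETS factor ELF4 rose from 43.0 ± 3.50 to 87.4 ± 15.8 CPM, whereas ELF1 lay at 42.1 ± 2.65 and 43.2 ± 2.76 CPM (SD, n = 3, adjusted p = 0.782). GATA3, GATA4 and ELF1 were named after their values were seen.

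Of 23 cofactors and regulators of these families, 19 were tested. Of those, 5 were called higher and 4 lower (median 0.1), beside 26.7% and 25.1% of all tested genes. SOX6 was tested only because of its knockdown libraries, so it had to be higher. Among the other 18 tested, 4 were higher and 4 lower (median 0.1), shares near those of all tested genes. The nuclear receptor coactivators NCOA3 and NCOA2 rose from 30.4 ± 6.40 to 85.9 ± 11.6 and from 30.1 ± 3.32 to 58.5 ± 4.08 CPM. WWP1, a ubiquitin ligase known to act on KLF5, rose from 39.6 ± 2.99 to 69.7 ± 2.79 CPM, and the corepressor TLE2 fell from 6.75 ± 0.828 to 2.57 ± 0.549 CPM (SD, n = 3). PPARGC1A, a coactivator of HNF4A below the filter and named after its value was seen, had 1 count in each control and 15, 8 and 16 in knockdown replicates 1, 2 and 3, a ratio of 10.9 with a counting interval of 3.46 to 55.0.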
